A study of Homo sapiens with 16 samples.

Results

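The 8 genes described here encode proteins of the tight junction, namely the claudins Cldn1, Cldn3, Cldn4, Cldn5 and Cldn7, occludin (Ocln), the scaffold protein ZO-1 (Tjp1) and the adhesion receptor JAM-A (F11r). They were chosen by name out of 32285 genes in the deposited count tables, and all 8 were found. Their counts of unique molecular identifiers (UMIs, each standing for a captured mRNA molecule) were summed over the cells of each deposited cluster label within each experiment and divided by all UMIs of those cells, which gives CPM, the UMIs per 1000000. The cells came from T22 and T127, mammary tumors of transgenic mice that express the LPA1 receptor in the mammary epithelium, of which T22 is sensitive and T127 resistant to PARP inhibitors.

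Tumor chunks of both models were transplanted into the mammary fat pad of female FVB mice, bought at 6 weeks of age. The mice received vehicle or olaparib, a PARP inhibitor, by mouth at 50 mg/kg daily. The long-term experiment lasted 20 days and mixed in its 8 pools tumors of T22 and T127 from mice that bore a single model or both models in opposite fat pads, where T22 had been placed 14 days before T127. The short-term experiments lasted 4 or 8 days, with 4 pools of T22 tumors and 4 pools of T127 tumors. The labels give Homo sapiens as the organism, although the animals, the genome build (GRCm38) and the gene symbols are those of the mouse. Cells could not be traced to single tumors in the files analysed, which leaves vehicle and olaparib uncompared, and no p-value was computed. Each experiment counts as 1 sample, its pools show only how far a level moved between captures, and all intervals below are 95% intervals of counting error. The cluster labels were built by the authors from the expression of these same cells, so a difference between labels is a description of the clusters and not a test.

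Tight junctions close the space between neighbouring epithelial or endothelial cells. Claudins span the membrane and form the strands that set which ions and solutes pass between cells, each tissue using its own set of claudins, with Cldn5 as the claudin of endothelium and Cldn3, Cldn4 and Cldn7 as claudins of simple and luminal epithelium. Occludin and JAM-A are further membrane proteins of the junction, and ZO-1 ties claudins to the actin cytoskeleton. Breast tumors with low Cldn3, Cldn4 and Cldn7 together with low E-cadherin are known as claudin-low, a class to which no tumor is assigned here.

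Of the cell barcodes, 4146 occurred in more than 1 long-term pool, 20 in more than 1 short-term T22 pool and 3 in more than 1 short-term T127 pool. Long-term pools 1 and 2 shared 3939 barcodes, pools 1 and 3 shared 987 and pools 2 and 3 shared 1082. Every other pair of long-term pools shared 8 barcodes or fewer. After the shallower copies of those in the long-term pools had been left out, 25723 of 30845 long-term cells remained, among them 6862 malignant cells. Of the 5122 copies left out, 1588 had the label of the deepest copy. A malignant label was carried by 111 of the copies left out, and 94 of these matched the deepest copy. The short-term experiments held 15094 cells of T22 and 8007 cells of T127. Total UMIs per pool lay between 34755906 and 55600377. The deposited labels name 4 malignant clusters, which the authors assigned to T22 (Malign_2 and Malign_3) and T127 (Malign_0 and Malign_1). The summed level of 6 epithelial markers (Epcam, Cdh1, Krt8, Krt18, Krt14 and Krt5) was 8846 and 3954 CPM in the T22 labels Malign_3 and Malign_2 of the long-term pools, against 1341 CPM in Malign_0 and 993 CPM in Malign_1. In Malign_0 and Malign_1 that sum came from Krt8 and Krt18, since Cdh1, the gene of E-cadherin, stood at 0.560 and 0.709 CPM and Epcam, a membrane protein that binds claudins, at 3.30 and 5.87 CPM. A list of 4 myeloid genes summed to between 41.5 and 107 CPM in the 4 malignant labels.

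The long-term pools did not behave as 8 equal captures. In 11 of 22 labels the cell numbers per pool did not overlap between pools 1 to 4 and pools 5 to 8. Malign_1, for example, held 293 to 360 cells in each of pools 1 to 4 and 109 to 157 in each of pools 5 to 8. The labels name no difference between these sets of pools and do not state which tumors each pool holds. Shared barcodes lay almost all among pools 1 to 3, so leaving out copies lowered cell numbers mainly in the first set. The levels of tight junction genes are therefore given both over all 8 pools and, where the sets differ, for each set.

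Malign_3 carried by far the highest Cldn3, Cldn4, Cldn7 and Ocln among the malignant labels, and Malign_2, the other T22 label, held a small fraction of each. The level of Cldn3 in the 8 long-term pools of Malign_3 ranged from 931 to 1151 CPM with a median of 1088 CPM. In Malign_2 it ranged from 14.4 to 51.6 CPM with a median of 43.9 CPM. No pool of Malign_2 came near the lowest pool of Malign_3. Summed over the pools, Cldn3 stood at 1058 CPM in 907 cells of Malign_3 (interval 1042 to 1074) and at 39.8 CPM in 1352 cells of Malign_2 (interval 37.3 to 42.5), a ratio of 26.6 (interval 24.9 to 28.4). Cldn3 and Cldn7 also stand on the study's own gene list for Malign_3, chosen on these same cells, so these ratios add no independent evidence.

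Cldn4, which is often expressed beside Cldn3 in glandular epithelium, was also far higher in Malign_3. Its level in the long-term pools of Malign_3 ranged from 142 to 366 CPM with a median of 215 CPM, against 0 to 3.02 CPM in Malign_2 with a median of 1.56 CPM. The summed levels of Cldn4 were 239 CPM and 1.62 CPM (interval 1.14 to 2.22). No fold is given, since the interval of the lower level overlapped that of T and NK cells. These should lack Cldn4 and held 0.610 CPM (interval 0.198 to 1.42) in the long-term pools. Cldn7, a claudin found along the lateral membrane of many epithelia, ranged from 438 to 699 CPM in Malign_3 with a median of 539 CPM and from 6.05 to 20.8 CPM in Malign_2 with a median of 16.3 CPM. Its summed levels were 544 and 14.8 CPM, a ratio of 36.8 (interval 33.1 to 41.1). The pools of the 2 labels did not overlap for either gene.

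Occludin followed the same pattern at a lower level. In the long-term pools Ocln ranged from 31.4 to 42.1 CPM in Malign_3, with a median of 39.7 CPM, and from 0 to 1.72 CPM in Malign_2. The summed levels of Ocln were 37.6 and 0.978 CPM, a ratio of 38.5 (interval 25.4 to 61.2). This ratio is uncertain, since the interval of Ocln in Malign_2, 0.620 to 1.47 CPM, overlapped that of T and NK cells, 0.00309 to 0.680 CPM. Cldn1, a claudin of the epidermal barrier and of many other epithelia, differed less. Its level ranged from 21.6 to 36.5 CPM over the pools of Malign_3 and from 3.44 to 7.92 CPM over those of Malign_2, with a ratio of 5.14 (interval 4.22 to 6.29) between 28.6 and 5.57 CPM.

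The scaffold and the adhesion receptor were far more alike in the T22 labels. Tjp1 stood at 40.4 CPM in Malign_3 and 20.1 CPM in Malign_2, a ratio of 2.01 (interval 1.79 to 2.27). F11r stood at 63.6 and 38.1 CPM, a ratio of 1.67 (interval 1.52 to 1.83). Tjp1 and F11r were both higher in Malign_3 than in Malign_2 within each of the 8 long-term pools. For Tjp1 the ranges over pools, 32.6 to 55.8 CPM in Malign_3 and 15.7 to 26.5 CPM in Malign_2, did not overlap. Cldn5 was at or near 0 in both labels at this depth, with 0 UMIs in Malign_3, which allows up to 0.190 CPM, and 0.043 CPM in Malign_2.

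A gene was counted as apart at 4-fold or more on log2(CPM + 1), among genes whose mean over both sides was at least 2 CPM. Of 7 tight junction genes that reached this level in the long-term pools, 5 were higher in Malign_3 than in Malign_2 (Cldn1, Cldn3, Cldn4, Cldn7 and Ocln) and 0 were lower. Among all 10946 genes tested, 3.64% were at least 4-fold higher and 4.12% at least 4-fold lower. The median difference of the 7 genes was 4.29 on the log2 scale, against 0.03 over all genes tested. With a pseudocount of 10 CPM in place of 1 CPM, Cldn1 fell short of 4-fold, with a log2 ratio of 1.31 in place of 2.17.

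**Figure D1:**
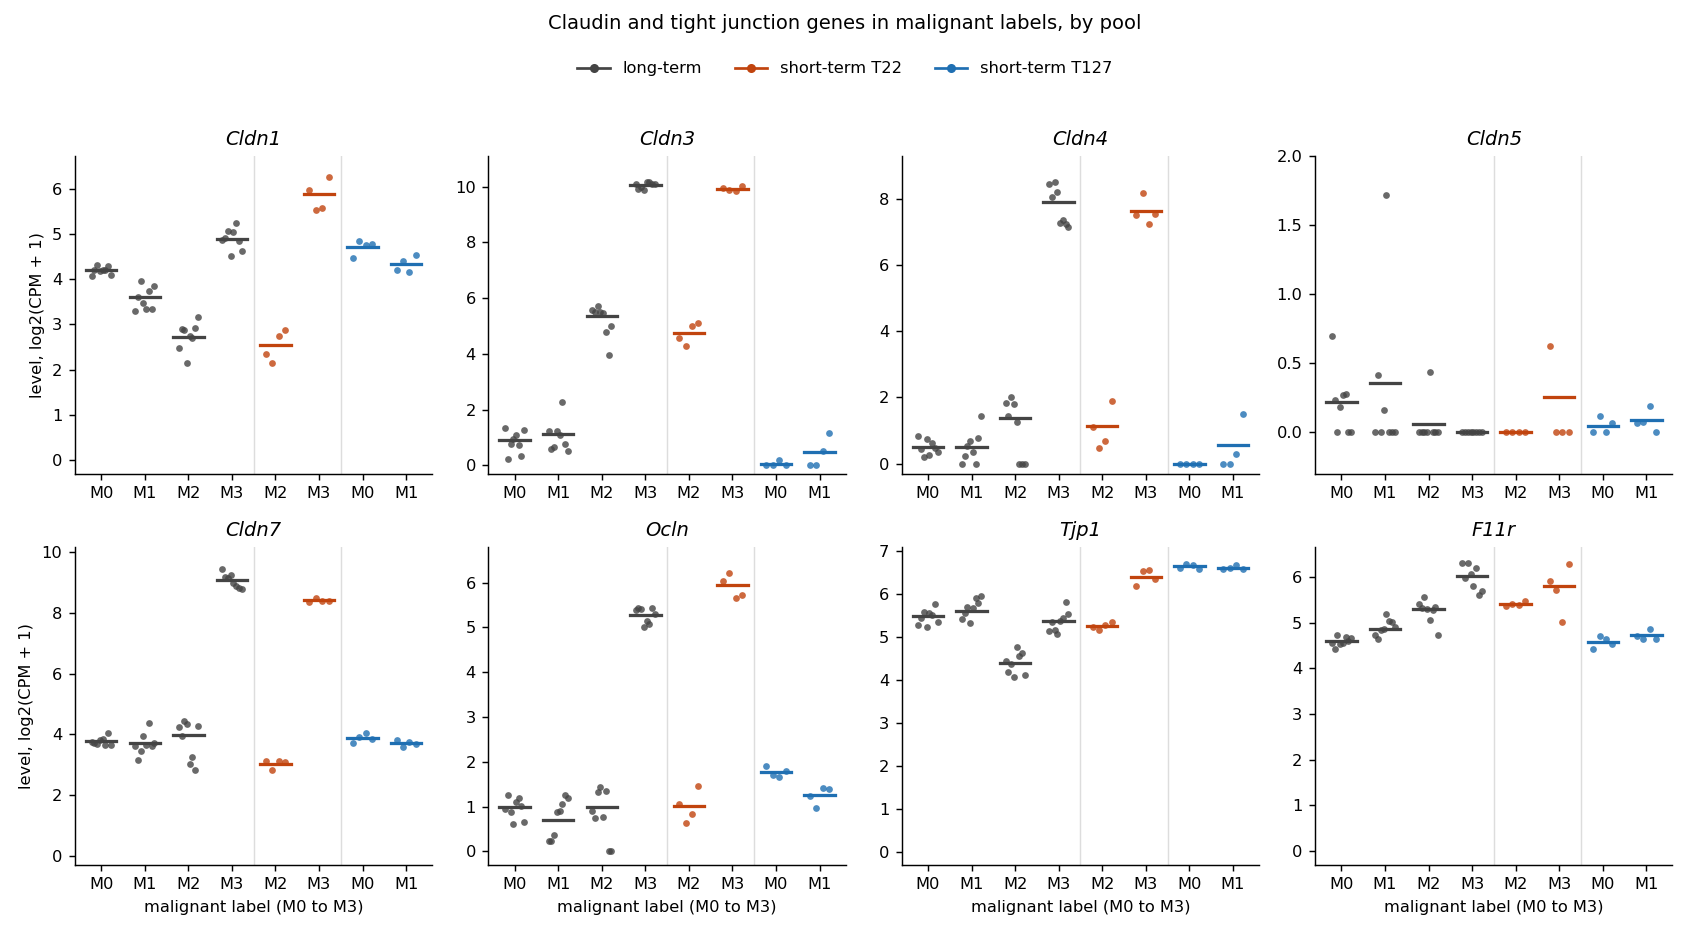
Levels of the 8 tight junction genes in the malignant labels, as log2(CPM + 1) on the vertical axis, with the labels (M0 to M3 for Malign_0 to Malign_3) on the horizontal axis, 1 point for each pool in the order of the pools, a line for the summed pools and colours for the 3 experiments. Cldn3, Cldn4, Cldn7 and Ocln of Malign_3 lie above those of the other labels in all pools, F11r spans a narrow range over the 4 labels, and Cldn4 of Malign_3 is lower in long-term pools 5 to 8 (142 to 164 CPM) than in pools 1 to 4 (267 to 366 CPM).

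The short-term T22 pools, from other tumors, showed the same order. In the 4 pools of Malign_3 (218 cells) Cldn3 stood at 984, 943, 923 and 1046 CPM, and in those of Malign_2 (1736 cells) at 22.6, 18.7, 30.6 and 33.0 CPM. Cldn4 stood at 182, 286, 152 and 187 CPM in Malign_3 and at 1.15, 0.396, 0.609 and 2.71 CPM in Malign_2. For Cldn7 the pools of Malign_3 held 332, 359, 338 and 337 CPM and those of Malign_2 held 7.66, 6.10, 7.66 and 7.52 CPM. Every pool of Malign_3 exceeded every pool of Malign_2 for these 3 claudins.

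For Ocln the short-term pools of Malign_3 stood at 64.7, 73.6, 49.7 and 51.5 CPM and those of Malign_2 at 1.07, 0.554, 0.783 and 1.75 CPM. Cldn1 stood at 57.8 CPM in Malign_3 and 4.80 CPM in Malign_2, a ratio of 12.0 (interval 10.1 to 14.4). Tjp1 differed by a ratio of 2.23, with Malign_3 higher in 4 of 4 pools. F11r differed by 1.33 (interval 1.17 to 1.50) and was higher in Malign_3 in 3 of 4 pools, its pools in Malign_3 ranging from 31.4 to 76.3 CPM around those of Malign_2. As in the long-term pools, 5 of 7 tight junction genes tested were at least 4-fold higher in Malign_3 and 0 lower, with the same 5 genes, against 4.43% higher and 5.18% lower among all 11381 genes.

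Both T127 labels held Cldn3, Cldn4, Cldn7 and Ocln at levels far below those of Malign_3, while Cldn1, Tjp1 and F11r were closer to it. In the long-term pools Cldn3 stood at 0.857 CPM in Malign_0 (2809 cells) and 1.19 CPM in Malign_1 (1794 cells), Cldn4 at 0.412 and 0.405 CPM and Ocln at 0.972 and 0.633 CPM. Cldn7 stood at 12.8 CPM in Malign_0, with pools from 11.5 to 15.5 CPM, and at 12.0 CPM in Malign_1, with pools from 7.86 to 19.7 CPM. For Cldn1 the pools ranged from 15.6 to 18.8 CPM in Malign_0 and from 8.78 to 14.5 CPM in Malign_1. Tjp1, at 43.9 and 48.1 CPM, was as high in the T127 labels as in Malign_3.

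Free RNA in the droplets gives UMIs in cells that do not express a gene, so these low levels were set beside those in lymphocytes. Over the T and NK cell labels of the long-term pools, Cldn3 stood at 2.44 CPM (interval 1.49 to 3.77), which lies above the 0.988 CPM of Malign_0 and Malign_1 together. In the short-term T127 pools, which held no T22 cells, Cldn3 of the T127 labels stood at 0.199 CPM and the T and NK cells held 0 UMIs of Cldn3. These levels are in CPM, and the T127 cells were deeper than the lymphocytes. Counted per cell the order was the other way in the long-term pools. The 4603 T127 cells held 99 UMIs of Cldn3 and 41 of Cldn4, and the 1818 T and NK cells held 20 and 5. The source of the Cldn3 UMIs of T127 cells in long-term pools was not tested. Cldn7, unlike Cldn3, was above the lymphocytes (2.93 CPM in the long-term pools) and stood at 12.5 CPM in the T127 labels of long-term pools and at 12.9 CPM in those of short-term pools, where the T and NK cells held 0 UMIs of it, which allows up to 1.22 CPM. Ocln of the T127 labels stood at 0.838 CPM in the long-term pools, against 0.122 CPM (interval 0.00309 to 0.680) in the T and NK cells. In the short-term pools it stood at 1.96 CPM against 0 UMIs, which allows up to 1.22 CPM. There Ocln stood at 2.43 CPM in Malign_0 and 1.41 CPM in Malign_1. Malign_1, at 0.633 CPM in the long-term pools, was not clearly above the lymphocytes in either experiment. Cldn4 of the T127 labels stood at 0.409 CPM in the long-term pools, against 0.610 CPM (interval 0.198 to 1.42) in the T and NK cells.

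In single short-term pools of T127, Cldn7 of Malign_0 (2515 cells) stood at 12.1, 14.0, 15.3 and 13.3 CPM and that of Malign_1 (2363 cells) at 13.1, 11, 12.3 and 11.7 CPM. The 1284 Cldn7 UMIs of Malign_0 lay in 861 cells, with at most 7 in any cell, so the low level was spread over many cells. Cldn3 UMIs were few and held by few cells there, with 3 UMIs in 1 cell of Malign_0 and 32 UMIs in 4 cells of Malign_1. Cldn4 had 0 UMIs in Malign_0 and 40 UMIs in 4 cells of Malign_1.

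Against Malign_0 and Malign_1 summed, 4 of 7 tight junction genes tested were at least 4-fold higher in Malign_3 (Cldn3, Cldn4, Cldn7 and Ocln) and 0 lower, beside 10.2% higher and 7.95% lower among all 11019 genes. The ratio was 43.6 (interval 41.1 to 46.3) for Cldn7 and 44.9 (interval 35.7 to 57.1) for Ocln. For Cldn3 and Cldn4, at 1058 and 239 CPM in Malign_3, no fold is given. Their T127 levels in CPM were no higher than in the T and NK cells, which were shallower. Cldn1 differed by a ratio of 1.93 and F11r by 2.52. Tjp1 was slightly lower in Malign_3, with a ratio of 0.887, and higher there in 2 of 8 pools.

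Malign_2 differed from the T127 labels mainly in Cldn3. Of 5 tight junction genes tested, only Cldn3 was at least 4-fold higher in Malign_2, at 39.8 against 0.988 CPM, and 0 were lower, beside 10.3% higher and 7.59% lower among all 10973 genes. No fold is given for Cldn3, since its T127 level lay below the 2.44 CPM of the T and NK cells. Cldn7 was close in summed level, with a ratio of 1.19 and Malign_2 higher in 5 of 8 pools. Its log2 ratio of 0.23 turned to -0.41 in pools 5 to 8 alone and to -0.20 without the 5% of cells with most UMIs. The 1286 of 1352 Malign_2 cells with fewer than 5 Cldn3 UMIs held 4.84 CPM of Cldn7, against 12.5 CPM in all T127 cells. F11r was 1.51-fold higher in Malign_2, in 8 of 8 pools. Cldn1 was 2.67-fold lower and Tjp1 2.27-fold lower in Malign_2 than in the T127 labels, and Tjp1 was lower in all 8 pools.

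The T127 labels did not stand 4-fold apart from each other in any of 4 tight junction genes tested (Cldn1, Cldn7, Tjp1 and F11r), in the long-term pools or in the short-term pools, beside 0.355% of all genes in either direction in both experiments. Cldn1 was higher in Malign_0 than in Malign_1 by a ratio of 1.57 (interval 1.40 to 1.76) in the long-term pools, in 8 of 8 pools. It was higher by 1.33 in the short-term pools, in 4 of 4, at 21.2, 27.8, 26.0 and 26.5 CPM against 17.4, 20.1, 16.8 and 22.2 CPM. F11r was lower in Malign_0, with ratios of 0.822 and 0.902 in the long-term and short-term pools. For Cldn7 the ratios of Malign_0 to Malign_1 were 1.06 and 1.13, the first of which turned direction in pools 5 to 8 alone (log2 ratio -0.095 in place of 0.076).

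**Figure D2:**
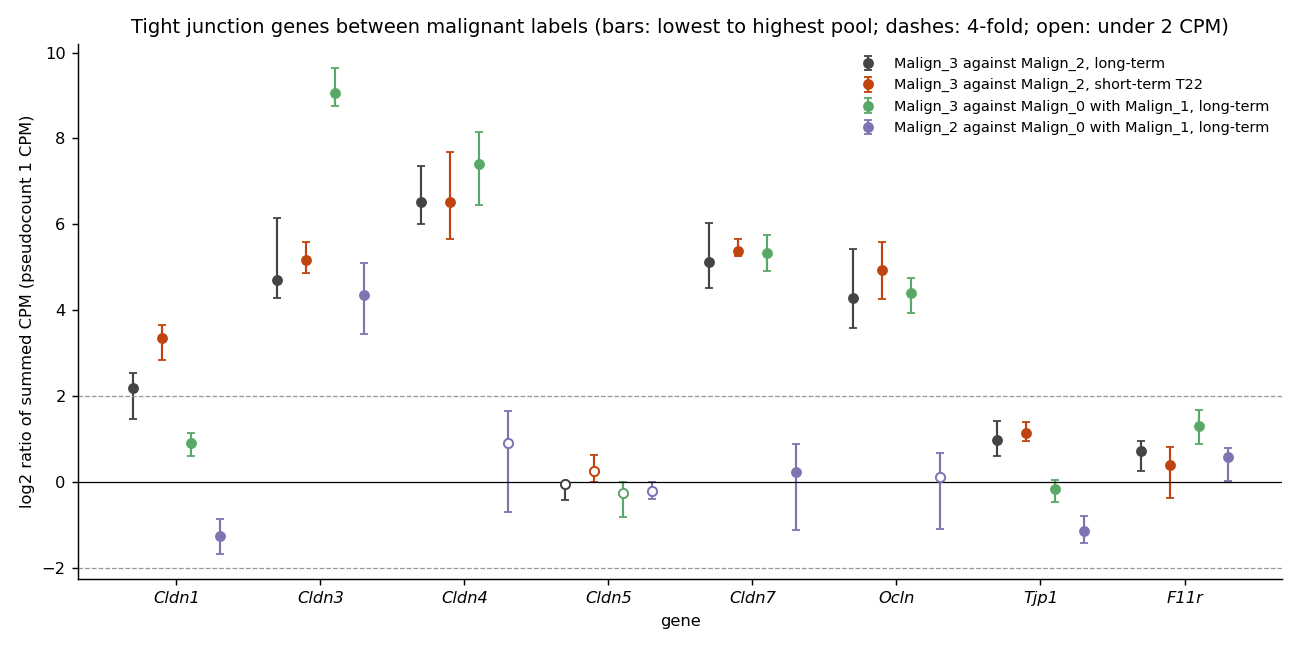
Log2 ratios of the tight junction genes in 4 comparisons of malignant labels (colours), on the vertical axis, with a point for the summed pools, a bar from the lowest to the highest single pool, open points for genes under a mean of 2 CPM and dashed lines at 4-fold. In both experiments Cldn3, Cldn4, Cldn7 and Ocln of Malign_3 against Malign_2 lie far beyond the dashed line, while the pools of Cldn1 lie across it in the long-term experiment and beyond it in the short-term one. Against the T127 labels Malign_2 passes it for Cldn3 alone.

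The share of claudin UMIs that fell to each claudin also set the labels apart. These shares were compared between labels, since capture at the 3′ end can differ between genes. Malign_3 held 29512 UMIs of the 5 claudins in the long-term pools, of which Cldn3 took 56.6%, Cldn7 29.1%, Cldn4 12.8% and Cldn1 1.53%. Malign_2 held 1455, of which Cldn3 took 64.4%, Cldn7 23.9%, Cldn1 9.0% and Cldn4 2.61%. Cldn4 thus made up a smaller part in Malign_2, with an interval of 1.85 to 3.57%, than in Malign_3, with an interval of 12.4 to 13.2%.

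In the T127 labels the makeup was of another kind. Cldn1 and Cldn7 took 55.0 and 40.5% of 1913 claudin UMIs in Malign_0, and 44.3 and 48.2% of 987 in Malign_1. Cldn3 took 2.72% in Malign_0 and 4.76% in Malign_1 there. In the short-term T127 pools, away from T22 cells, the share of Cldn3 was 0.0818% in Malign_0 and 1.22% in Malign_1. Cldn3 again took the largest share in the short-term T22 pools, 62.0% in Malign_3 and 66.3% in Malign_2, with Cldn4 at 12.6 and 3.05%. The share of Cldn7 was lower there than in the long-term pools, at 21.6% (interval 20.7 to 22.5) against 29.1% (interval 28.6 to 29.6) in Malign_3 and at 18.4% against 23.9% in Malign_2. The share of Cldn1 in Malign_3 was higher, at 3.68% against 1.53%, and so was its level, at 57.8 against 28.6 CPM. In Malign_2 its share was 12.2% against 9.0%, while its level was 4.80 against 5.57 CPM and those of Cldn3 and Cldn7 were lower in the short-term pools.

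**Figure D3:**
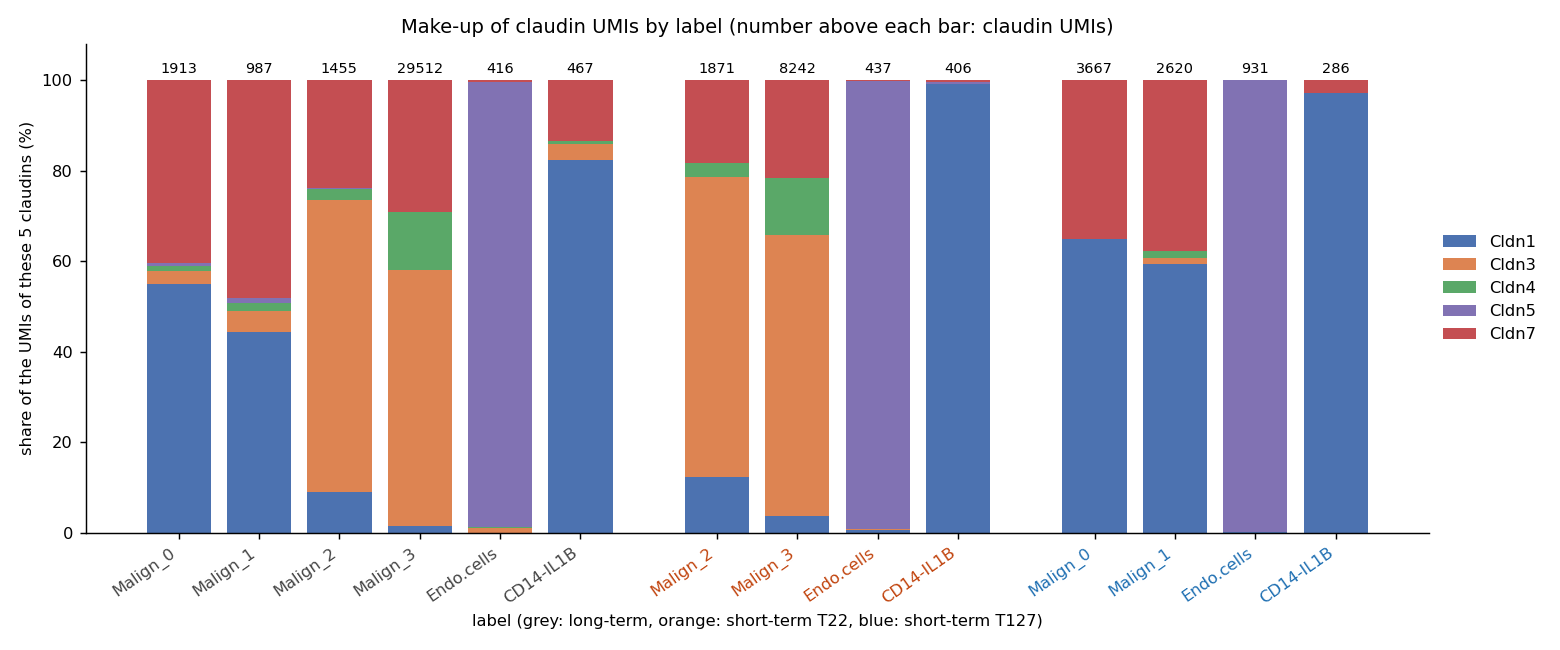
Share of the UMIs of 5 claudins that each claudin took, in percent on the vertical axis, as stacked bars for the malignant labels and for selected other labels in the 3 experiments. Cldn3 and Cldn7 fill most of the bars of Malign_3 and Malign_2, Cldn1 and Cldn7 those of Malign_0 and Malign_1, and Cldn5 almost the whole bar of the endothelial label (98.3% in the long-term pools).

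Most cells of Malign_3 held more than 1 of Cldn3, Cldn4 and Cldn7. For this count each cell was thinned to 3000 UMIs so that depth could not set the share, which left out no cell of these labels. All 3 of Cldn3, Cldn4 and Cldn7 were detected in 222 of 907 long-term cells of Malign_3, or 24.5% (interval 21.7 to 27.4), and in 47 of 218 short-term cells, or 21.6% (interval 16.3 to 27.6). In Malign_2 no thinned cell held all 3, with 0 of 1352 long-term cells, which allows a share of up to 0.222%, and 0 of 1736 short-term cells, which allows up to 0.173%. Without thinning, the shares were 61.4 and 68.8% in Malign_3 and 0.814 and 0.749% in Malign_2. Such joint shares depend on the level of each gene. In thinned long-term cells of Malign_3, Cldn7 was found in 77.9% with Cldn3 and 75.4% without it. For Cldn4 these shares were 33.1 and 20.3%, and in short-term cells 32.7 and 56.3%, with only 16 cells lacking Cldn3. In thinned long-term cells of Malign_2, Cldn7 was found in 26.6% with Cldn3 and 1.81% without it.

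Detection of single claudins followed the summed levels. Cldn3 was found in 92.4% of thinned long-term cells of Malign_3 and in 5.84% of those of Malign_2, against 1.56% of CD4_Tcm-TCF7 T cells, which should lack it and of which 623 shallower cells were left out. In the short-term T22 pools the shares with Cldn3 were 92.7, 4.84 and 0.812%. Cldn7 was found in 77.7% of long-term cells of Malign_3, 3.25% of Malign_2, 4.13% of Malign_0 and 2.84% of Malign_1, against 0.975% of the T cells. The median depth before thinning was 15056 UMIs in Malign_3, 15780 in Malign_2, 19775 in Malign_0 and 20460 in Malign_1.

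**Figure D4:**
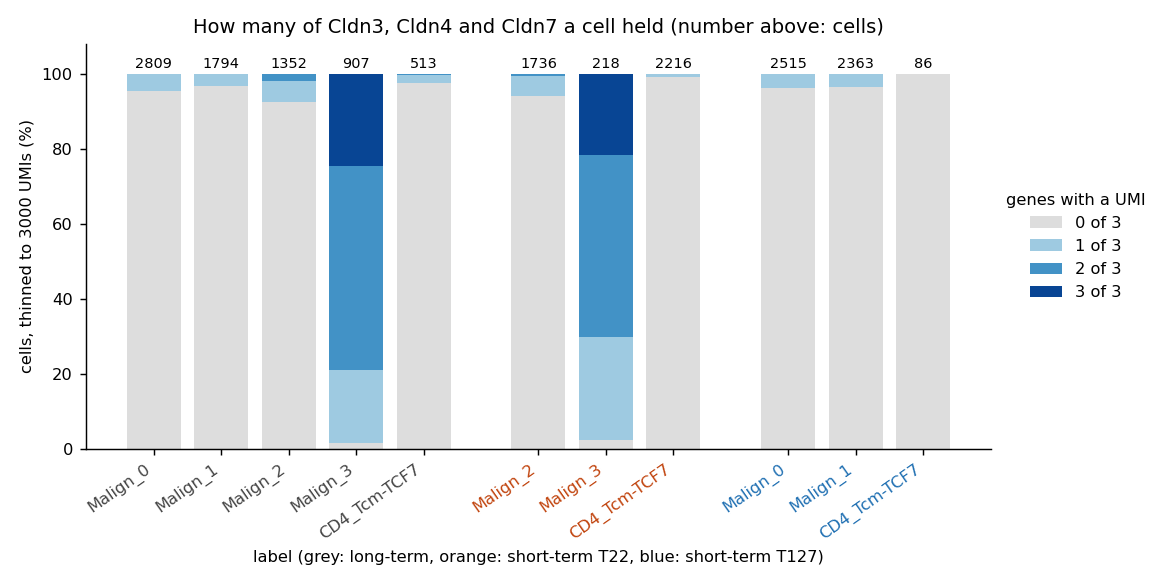
Share of cells, in percent on the vertical axis, that held UMIs of 0, 1, 2 or 3 of the genes Cldn3, Cldn4 and Cldn7. Cells were thinned to 3000 UMIs, and bars stand for the malignant labels and CD4_Tcm-TCF7 T cells of each experiment. In Malign_3, cells with all 3 genes made up 24.5% in the long-term and 21.6% in the short-term T22 pools. Malign_2 held no such cell in either.

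Cldn3 of Malign_2 was carried by a small part of its cells. In the long-term pools 937 Cldn3 UMIs lay in 204 of 1352 cells, and 29 cells held 50% of them. In Malign_3 nearly every cell had Cldn3, 906 of 907, and 50% of its UMIs were spread over 256 cells. Malign_2 cells with at least 5 Cldn3 UMIs numbered 66, or 4.88%, in the long-term pools and 72, or 4.15%, in the short-term T22 pools. This limit cuts a range and defines no cell type, for 27 long-term cells held 3 or 4 UMIs and 21 held 5 or 6, and deeper cells pass it more easily, the median depth being 23681 UMIs in the 66 cells and 15495 UMIs in the others.

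Cldn4, Cldn7 and Ocln had most of their UMIs in the same 66 long-term cells, with 30 of 38, 242 of 348 and 15 of 23, while Cldn1 had 39 of 131 there. Cldn7 stood at 150 CPM in them and at 4.84 CPM in the other cells of Malign_2, Cldn4 at 18.6 and 0.365 CPM, Ocln at 9.32 and 0.365 CPM and Cldn1 at 24.2 and 4.20 CPM. Tjp1, at 22.4 and 19.9 CPM, and F11r, at 47.2 and 37.4 CPM, differed little. The same cells held 597 CPM of Krt18, a keratin of luminal cells, against 50.1 CPM in the others, and 145 CPM of Krt5, a keratin of basal cells, against 973 CPM. Snai2, a repressor of epithelial genes, stood at 24.9 CPM against 81.3 CPM.

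The split of Malign_2 in the short-term T22 pools gave Cldn7 at 84.9 CPM in the 72 cells and 2.47 CPM in the others, Cldn4 at 14.6 and 0.378 CPM, Cldn1 at 31.7 and 3.16 CPM and Ocln at 8.38 and 0.578 CPM. Here the 72 cells held 233 of 344 Cldn7 UMIs and 40 of 57 Cldn4 UMIs, of which a single cell of Malign_2 held 24, but only 23 of 49 Ocln UMIs. Krt18 stood at 321 and 20.0 CPM, Krt5 at 571 and 1834 CPM, and the median depth was 36515 and 24913 UMIs. Without the 5% of cells with most UMIs in each pool, Cldn3 of Malign_2 in the short-term T22 pools fell from 26.0 to 13.9 CPM and its Cldn7 from 7.21 to 4.40 CPM. Whether the cells with much Cldn3 hold RNA of Malign_3 cells, as droplets with more than 1 cell would, was not tested.

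Within Malign_3 and Malign_2 some claudins moved with the set of long-term pools. In Malign_3, Cldn4 stood at 352, 267, 366 and 296 CPM in pools 1 to 4 and at 155, 164, 151 and 142 CPM in pools 5 to 8, which summed to 323 and 153 CPM, a ratio of 2.11 (interval 1.97 to 2.26). Cldn7 of Malign_3 ranged from 568 to 699 CPM in pools 1 to 4 and from 438 to 510 CPM in pools 5 to 8, a ratio of 1.31 (interval 1.25 to 1.36). Cldn3 went the other way, from 931 to 1085 CPM against 1092 to 1151 CPM, a ratio of 0.891, and so did Tjp1, from 32.6 to 40.2 CPM against 40.8 to 55.8 CPM, a ratio of 0.769.

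So 4 of 7 tight junction genes tested in Malign_3 did not overlap between the sets, 2 higher and 2 lower in pools 1 to 4. Among all genes tested in Malign_3, 6.86% were higher and 6.75% lower without overlap. In Malign_2, Cldn3 alone of the tight junction genes tested did not overlap, with 44.7 to 51.6 CPM in pools 1 to 4 and 14.4 to 43.2 CPM in pools 5 to 8, a ratio of 1.58 (interval 1.37 to 1.82), beside 8.32% of all genes higher and 7.34% lower without overlap. F11r of Malign_1 was lower in pools 1 to 4, from 24.1 to 27.9 CPM, than in pools 5 to 8, from 29.0 to 35.6 CPM, beside 6.99% of all genes higher and 15.1% lower. Malign_0 had no tight junction gene without overlap, beside 12.2% of all genes higher and 18.3% lower. Treatment, tumor and pool cannot be told apart here.

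Between the experiments, which differ in harvest, depth and pooling and whose levels are only set side by side, Tjp1 was the tight junction gene that moved alike in all 4 malignant labels. It stood at 43.9, 48.1, 20.1 and 40.4 CPM in Malign_0, Malign_1, Malign_2 and Malign_3 of the long-term pools and at 99.4, 97.2, 37.3 and 83.2 CPM in the short-term pools. On the log2 scale these differences of Tjp1 lay between 0.86 and 1.16, while the median of all genes tested was shifted by 0.33 to 0.36. The rise of Tjp1 was not confined to malignant labels. In endothelial cells it was 0.68 for short-term T22 and 0.95 for short-term T127, and in i_CAF 1.30 and 0.60. In Macro-M2 the differences of Tjp1 were 0.54 and -1.97. Cldn7 of the T22 labels was lower in the short-term pools, at 340 CPM against 544 CPM in Malign_3 and at 7.21 CPM against 14.8 CPM in Malign_2, and its level in Malign_0 and Malign_1 was nearly equal in both. F11r differed by at most 0.21 on the log2 scale in any of the 4 labels.

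The pathway beyond these genes was followed in 41 further tight junction genes. Of 26 that reached the tested level in the long-term comparison of Malign_3 with Malign_2, 7 were at least 4-fold higher in Malign_3 (Cldn6, Cldn10, Tjp3, Cgn, Marveld3, Jam2 and Crb3) and 0 lower, beside 3.64% higher and 4.12% lower among all genes. The median difference of the 26 was 0.98 on the log2 scale, against 0.03 over all genes. In the short-term T22 pools 7 of 25 were higher and 0 lower, with Pard6b in place of Cldn10, beside 4.43% and 5.18%. Cldn6, a claudin of early epithelia, stood at 29.0 CPM in Malign_3 and 0.213 CPM in Malign_2. Tjp3, the scaffold ZO-3, stood at 37.5 and 3.53 CPM, Marveld3, a relative of occludin, at 38.8 and 2.64 CPM, Jam2, a relative of JAM-A, at 33.8 and 2.59 CPM and Crb3, a protein of apical polarity, at 92.6 and 10.7 CPM.

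Several junction genes were shared by both T22 labels and nearly missing from T127. Lsr, the angulin of tricellular junctions, stood at 148 CPM in Malign_3 and 151 CPM in Malign_2, against 0.494 CPM in Malign_0 and 0.810 CPM in Malign_1. Ildr1, another angulin, stood at 37.6 and 17.6 CPM in the T22 labels and at 0.0989 and 0.0759 CPM in the T127 labels. Cxadr, an adhesion receptor of the junction, was at 55.3 and 22.5 CPM against 0.0165 and 0.0506 CPM, and Cldn8 at 90.4 and 30.7 CPM against 0.0659 and 0.177 CPM. Over the whole list 14 of 28 genes were higher and 2 lower (Cldn9 and Jam3) in Malign_3 than in T127, beside 10.2% higher and 7.95% lower among all genes. In Malign_2 there were 6 of 22 higher and the same 2 lower, beside 10.3% and 7.59%.

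Among the further claudins of the list, Cldn9 alone reached 20 CPM in a T127 label, and it was nearly missing from T22. It stood at 33.8 CPM in Malign_0 and 18.2 CPM in Malign_1 of the long-term pools, against 0.255 CPM in Malign_2 and 0.380 CPM in Malign_3. The short-term pools gave 33.5 CPM for Cldn9 in Malign_0 and 19.4 CPM in Malign_1, and 0 UMIs in both T22 labels. Between Malign_0 and Malign_1, 0 of 17 genes of the list tested were 4-fold apart in either experiment, beside 0.355% of all genes.

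Genes of the adherens junction, which lies below the tight junction, and partners of claudins split the T22 labels in both directions. Nectin2 and Nectin4 were at least 4-fold higher in Malign_3 than in Malign_2 of the long-term pools, and Cdh3 and Nectin1 were at least 4-fold lower. Cdh3, the gene of P-cadherin, stood at 2.34 CPM in Malign_3 and 76.7 CPM in Malign_2, and Nectin1 at 9.12 and 80.2 CPM. Nectin2 stood at 22.4 and 4.12 CPM. Cdh1 was high in both, at 113 and 65.1 CPM, as was Epcam, at 2780 and 922 CPM, and Ctnnb1, which encodes beta-catenin, at 424 and 260 CPM against 97.6 and 90.5 CPM in Malign_0 and Malign_1. In the short-term T22 pools 2 of 11 were higher (Nectin2 and Nectin4) and the same 2 lower, beside 4.43% higher and 5.18% lower among all genes. Against T127, 6 of 10 were higher in Malign_3 and 4 of 9 (Epcam, Cdh1, Cdh3 and Nectin1) in Malign_2, with 0 lower, beside 10.2 and 10.3% of all genes higher.

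Transcription and splicing factors known to act on claudin genes were given by level alone. The grainyhead factor Grhl2, an activator of claudin genes in epithelia, stood at 27.9 CPM in Malign_3 and 24.1 CPM in Malign_2 and at 0.0659 and 0.127 CPM in Malign_0 and Malign_1. Grhl1 stood at 16.9 and 10.8 CPM in the T22 labels and at or under 0.683 CPM in the T127 labels, and the splicing factor Esrp1 at 68.2 and 54.3 CPM against 0.264 and 0.380 CPM. Elf3, Ovol1 and Ovol2, factors of the epithelial state, were highest in Malign_3, at 33.1, 6.27 and 8.68 CPM, against 3.32, 0.0850 and 2.55 CPM in Malign_2. Both T22 labels thus carried Grhl2 and Esrp1, and Malign_3 alone carried Elf3 beside them at a high level.

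Repressors of epithelial genes were high in T127. In Malign_0 and Malign_1 of the long-term pools Snai1 stood at 81.4 and 95.2 CPM, Zeb1 at 41.5 and 47.4 CPM, Zeb2 at 17.8 and 21.9 CPM and Twist1 at 299 and 283 CPM, while Snai1, Zeb1, Zeb2 and Twist1 all stood between 0.697 and 3.55 CPM in the T22 labels. Snai2 was high only in Malign_2, at 77.4 CPM against 0.950 CPM in Malign_3, while Malign_0 and Malign_1 held 4.61 and 4.58 CPM. Its levels in the short-term T22 pools were 118 CPM in Malign_2 and 0.954 CPM in Malign_3. Twist2 did not exceed 0.0634 CPM in any malignant label of the long-term pools. Whether these factors acted on the claudins of these cells was not tested.

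Outside the malignant labels, Cldn5 was the claudin of the endothelial label, in which all 8 endothelial markers reached 20 CPM or more in each experiment. In the long-term pools Cldn5 stood at 359 CPM (interval 325 to 395) in 249 endothelial cells, with pools from 46.5 to 499 CPM and a median of 406 CPM. In the short-term pools it stood at 477, 410, 644 and 567 CPM for T22 (88 cells in all) and at 924, 852, 550 and 1026 CPM for T127 (118 cells). All other non-malignant labels of the long-term pools together held 0.207 CPM of Cldn5. With the pseudocount of 1 CPM the log2 ratio was 8.22, with single pools from 5.57 to 8.78. No fold is given for Cldn5, since the lower level rested on 34 UMIs, of which 7 lay in 1 cell of CD14-PF4. Against the same labels Tjp1 was 22.7-fold higher (interval 19.6 to 26.2) and F11r 7.12-fold (interval 6.45 to 7.85). Cldn5, Tjp1 and F11r, or 3 of 6 tight junction genes tested, were at least 4-fold higher, beside 10.2% of all 11371 genes.

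Cldn1 counted as lower in the endothelial label, beside 9.98% of all genes, but rested on 0 UMIs against 4.65 CPM. The 95% interval shows only that Cldn1 was at least 1.44-fold lower, and with a pseudocount of 10 CPM it was not called. Tjp1 stood at 195 CPM in endothelial cells of the long-term pools, 312 CPM in short-term T22 and 376 CPM in short-term T127, the highest of any label in each. After endothelial cells, Tjp1 was next in the fibroblast label my_CAF of the long-term pools, at 66.0 CPM. F11r stood at 373, 314 and 389 CPM in endothelial cells.

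F11r, which leukocytes also carry, was found in all macrophage labels. It ranged from 47.6 CPM in Macro-MKI67 to 67.7 CPM in Macro-others of the long-term pools, beside 63.6 CPM in Malign_3. Over the macrophage labels it ranged from 84.8 to 110 CPM in the short-term T22 pools and, lower than in the long-term pools, from 32.5 to 45.9 CPM in the short-term T127 pools, beside 22.8 CPM in Malign_0 and 25.3 CPM in Malign_1. In lymphocytes of the long-term pools F11r was low, with 2.70 CPM in CD4_Tcm-TCF7 cells and 3.20 CPM in NK cells. Below the endothelial label the order of F11r ran from Macro-others (67.7 CPM) over Macro-M1 (66.4 CPM) and Malign_3 (63.6 CPM) to CD16-CDKN1C (62.0 CPM), neighbours whose counting intervals overlapped.

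**Figure D5:**
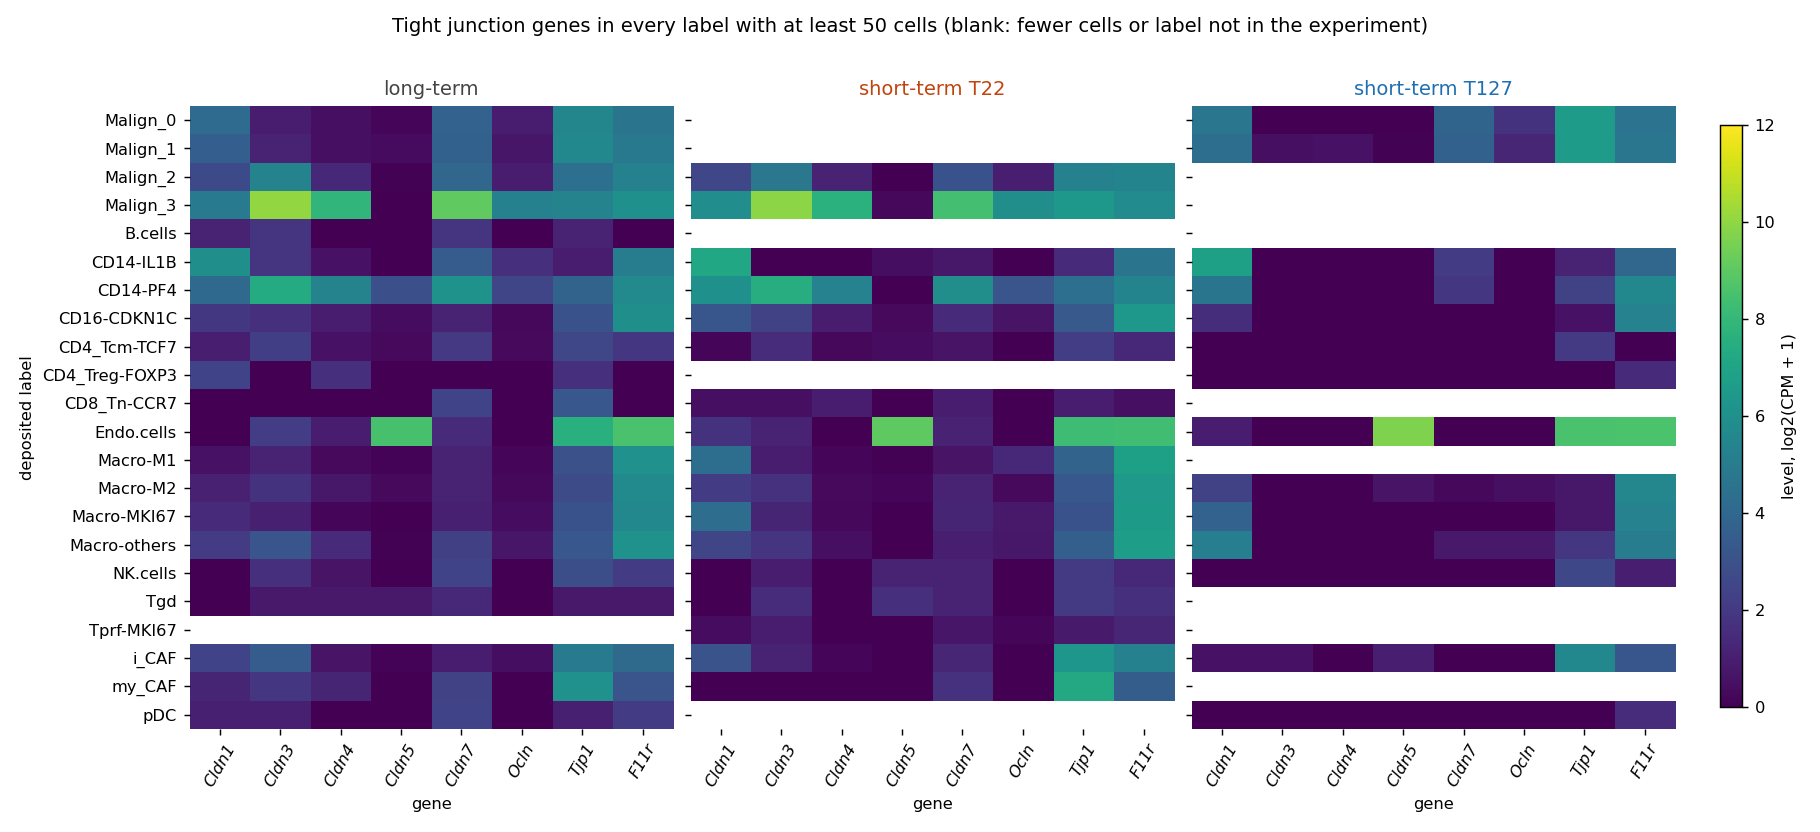
Levels of the 8 tight junction genes (columns) in every deposited label with at least 50 cells (rows) of the 3 experiments, as log2(CPM + 1) in colour. Cldn5 is high in the endothelial label alone (359 CPM in the long-term pools), Cldn3, Cldn4 and Cldn7 are highest in Malign_3 with CD14-PF4 next in the long-term and short-term T22 pools, Cldn1 is highest in CD14-IL1B, and F11r is found in endothelial, macrophage and malignant labels.

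The highest Cldn1 of any label was in CD14-IL1B, which was grouped here with the myeloid labels. Cldn1 stood there at 61.6 CPM (interval 55.6 to 68.1) in 446 long-term cells, at 144 CPM in 143 short-term T22 cells and at 112 CPM in 144 short-term T127 cells. Its long-term pools ranged from 34.8 to 163 CPM with a median of 61.7 CPM. In the short-term pools Cldn1 of CD14-IL1B stood at 161, 114, 119 and 191 CPM for T22 and at 98.6, 126, 139 and 90.9 CPM for T127. The other myeloid labels were taken as CD14-PF4, CD16-CDKN1C, pDC and the macrophage labels. Against these Cldn1 was 26.0-fold higher in the long-term pools (interval 22.4 to 30.2), 12.8-fold in short-term T22 and 12.6-fold in short-term T127. It was past 4-fold in all 3, beside 1.57, 1.9 and 1.39% of all genes. Cldn1 took 82.4% of 467 claudin UMIs in CD14-IL1B of the long-term pools. The next myeloid labels for Cldn1 were CD14-PF4 at 16.2 CPM in the long-term pools and 64.7 CPM in short-term T22, and Macro-others at 33.6 CPM in short-term T127. Few cells carried the level of CD14-PF4 in short-term T22, where 41 of 49 Cldn1 UMIs lay in 5 of 66 cells.

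The label CD14-IL1B as a whole also held more RNA of dendritic cell genes. Of 8 such genes (Ccr7, Fscn1, Ccl22, Cd207, Itgae, Zbtb46, Flt3 and Cd209a), chosen after values were seen, 7 were at least 4-fold higher than in the other myeloid labels in the long-term pools, 6 in short-term T22 and 7 in short-term T127, beside the 1.57, 1.9 and 1.39% of all genes given above. Having been picked by their values, they say nothing on which cells the label holds. Cd209a went the other way in short-term T22, at 16.4 CPM in CD14-IL1B against 46.3 CPM. Itgae, the integrin CD103, was 42.1-fold higher in the long-term pools, Flt3, a receptor of dendritic cell growth, 15.5-fold, Zbtb46, a factor of classical dendritic cells, 13.2-fold and Ccr7, a homing receptor, 5.13-fold. Epcam stood at 992 CPM in CD14-IL1B against 103 CPM in the other myeloid labels of the long-term pools, at 167 against 104 CPM in short-term T22 and at 636 against 237 CPM in short-term T127. The genes in the name of the label were lower than in the other myeloid labels, Il1b with ratios of 0.850, 0.469 and 0.718 and Cd14 with ratios of 0.875, 0.292 and 0.453 in the long-term, short-term T22 and short-term T127 pools. Within the label the dendritic genes did not all run with Cldn1, since the long-term cells with a Cldn1 UMI held 186 CPM of Itgae against 56.7 CPM in the others, but 14.9 against 166 CPM of Fscn1 and 27.1 against 145 CPM of Ccr7. The part of these genes in the Cldn1 level was not tested.

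The fibroblast label i_CAF held a low level of Cldn3 in the long-term pools, 10.3 CPM (interval 8.45 to 12.4) with pools from 3.88 to 16.0 CPM. Its 109 UMIs lay in 68 of 726 cells, with at most 8 in any cell. Cldn4 and Cldn7 stood at 0.566 and 0.944 CPM in i_CAF. In i_CAF and my_CAF together there were 0.117 Cldn7 UMIs for each Cldn3 UMI, against 0.515 in Malign_3. The macrophage labels and CD16-CDKN1C together held 0.530, and the T and NK cells 1.2, on 20 Cldn3 UMIs. In the short-term T22 pools i_CAF and my_CAF together held 1.56, on 9 Cldn3 UMIs. The source of the Cldn3 UMIs of i_CAF was not tested. In the short-term pools Cldn3 of i_CAF was 1.27 CPM for T22 and 0.519 CPM for T127.

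The genes whose levels over 22 labels of the long-term pools ran closest to each tight junction gene were found by Pearson's r of log2(CPM + 1) among 9897 genes, as a description, since the labels share pools and depth. Closest to Cldn3 were Krt7 (r = 0.953), Cxcl17 (0.948) and Cyp2f2 (0.945). Closest to Cldn4 were Lrrc26 (0.969), Slc5a8 (0.948) and Plb1 (0.940), and to Cldn7 they were Wfdc12 (0.939), Mlph (0.885) and Wfdc2 (0.885). For Ocln they were Lrrc26 (0.947), Wfdc12 (0.907) and Cldn4 (0.906). Cldn5 ran with Gm12002 (0.988), Gpihbp1 (0.984) and Sez6l2 (0.972), of which Gpihbp1 is a protein of capillary endothelium. Cldn1 ran with Fndc5 (0.873), Plet1 (0.865) and Mapk13 (0.784), Tjp1 with Unc5b (0.924), Bok (0.911) and Dync1i2 (0.907), and F11r with Pld1 (0.925) and Ctnnbip1 (0.907).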

How the data were processed

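The authors sequenced single cells of hashtagged tumors with the 10x 3′ chemistry, ran Cell Ranger 6.0.0 on the mouse genome GRCm38, counting introns as well as exons, removed cells with few genes or much mitochondrial RNA, and removed doublets with Scrublet. They deposited raw UMI counts of 32285 genes per cell and a cluster label per cell for 16 pools. Their 16 normalized tables were not used.

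For long-term barcodes found in more than 1 pool the copy with most UMIs was kept. UMIs were summed per label and experiment and expressed in CPM. Log2 ratios used a pseudocount of 1 CPM, with genes of a mean of at least 2 CPM counted as apart at 4-fold. Intervals are exact Poisson (levels), conditional binomial (ratios) and Clopper-Pearson (shares) at 95% and cover counting error only. Ranges are over pools with at least 20 cells. A level or share of 0 is given with the limit that 3 UMIs or 3 cells would set. No further doublet calling was done. An alternative omitted the 5% of cells with most UMIs in each pool. Shares used cells thinned to 3000 UMIs. Comparison and thinning code was tested on simulated data.

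The 8 genes and the lists were chosen with earlier results of these data known. Named in the text are the 8 genes, listed junction genes of at least 20 CPM in a malignant label and at least 4-fold apart between malignant labels, all 12 listed factors, the 3 genes closest in pattern to each member with at least 20 CPM in some label, and members of counts of 5 or fewer. Genes counted as apart are also listed where a count of up to 7 is given, and markers, chosen after values were seen, where cells of a label were split. The splits by Cldn3 UMIs, the CD14-IL1B comparison and the sets of pools were chosen after seeing the data. Some genes that this rule names are not reported here. Sequences are not used here, since the reference at hand is of another species. The tools were pandas 2.3.3, numpy 2.4.6 and scipy 1.17.1 under Python 3.11.15, with matplotlib 3.10.9 for the plots.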

Additional observations from a re-analysis of the deposited data

Results flagged for a closer look

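In groups of 4 to 8 pools, a pool standing apart from the others by Dixon's 95% limit was found in 4 of 55 groups, and chance flags about 1 in 20. Cldn5 of the endothelial label was 46.5 CPM in long-term pool 3, against a median of 406 CPM over 8 pools. Cldn7 of Malign_0 was 15.5 CPM in long-term pool 7, above a median of 12.3 CPM. In the short-term T22 pools, Cldn7 of Malign_2 was 6.10 CPM in pool 2, below a median of 7.59 CPM, and F11r of the endothelial label was 267 CPM in pool 3, below a median of 326 CPM.

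Tjp1 of Malign_0 against Malign_1 had opposite signs in the experiments, by small differences. The log2 ratio was 0.0321 in the short-term T127 pools, with Malign_0 higher in 4 of 4 pools, and -0.130 in the long-term pools, with Malign_0 higher in 0 of 8. The short-term ratio of 1.02 had a counting interval of 0.992 to 1.05, which includes no difference, and the median log2 ratio of all genes tested was 0.0988 and 0.0668, so that relative to it Tjp1 was lower in Malign_0 in both. The difference between experiments was not tested.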

How the results depend on the processing

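Each choice was changed on its own, and no log2 ratio of a tight junction gene that had passed 4-fold changed sign. Of 552 recomputed ratios, 525 stayed within the spread of the pools (1 SD) and 27 moved further. Shares of cells with a UMI depended on the depth chosen, since 54 of 72 left their counting interval when cells were thinned to 5000 UMIs or not thinned, such as cells of Malign_3 with all of Cldn3, Cldn4 and Cldn7 in the long-term pools (24.5% at 3000, 38.1% at 5000 and 61.4% unthinned, against 0, 0.148 and 0.814% in Malign_2). A change of sign was seen in 8 of the ratios, all under 4-fold, namely Cldn7 of Malign_2 against T127 (4 alternatives), Cldn7 of Malign_0 against Malign_1 in the long-term pools (2), and Cldn7 and Cldn3 of the endothelial label (1 each). A pseudocount of 10 CPM ended the 4-fold difference of Cldn1 between Malign_3 and Malign_2 in the long-term pools (log2 ratio 1.31) and in the endothelial label (-0.55), where 0 tight junction genes were then lower, as also with the mean of CPM per cell. With that pseudocount the numbers of all genes higher and lower were 110 and 145 for Malign_3 against Malign_2 in the long-term pools, 144 and 203 in the short-term T22 pools, 341 and 311 for Malign_3 against T127, 359 and 315 for Malign_2 against T127 and 532 and 451 for the endothelial label, while Malign_0 against Malign_1 gave 0 higher in the long-term and 21 lower in the short-term pools. At 2-fold in place of 4-fold these numbers were 1023 and 1083, 1225 and 1262, 2152 and 2068, 2094 and 2043, and 2681 and 1753, and Malign_0 against Malign_1 gave 72 and 130 in the long-term and 9 and 166 in the short-term pools, while 2 tight junction genes (Cldn1 and Tjp1) were lower in Malign_2 than in T127. Between Malign_0 and Malign_1 of the long-term pools, 1 gene in all was higher, 0 in pools 4 to 8 and 2 in pools 1 to 4 (a set chosen after seeing the data). Levels moved by over 1.5 times in pools 5 to 8 alone for Cldn4 of Malign_3 (239 to 153 CPM) and Cldn7 of Malign_2 (14.8 to 9.71 CPM). In CD14-PF4, Tjp1 went from 13.3 to 8.82 CPM and Cldn5 from 6.65 to 0 CPM there. Pools 1 to 4 alone gave 21.5 and 18.8 CPM for these, and pools 4 to 8 alone 8.62 and 0 CPM. Without the 5% of cells with most UMIs, Cldn3 and Cldn7 of Malign_2 in the short-term T22 pools moved that far. Cldn7 of CD14-PF4 did so in the long-term pools (71.3 to 34.3 CPM) and in short-term T22 (60.8 to 34.6 CPM). With the mean of CPM per cell 10 of 71 levels moved that far, all in CD14-PF4, where Cldn3 fell from 164 to 67.3 CPM in the long-term pools and from 180 to 87.1 CPM in the short-term T22 pools, and Cldn1 from 64.7 to 36.6 CPM in the latter. Without the 5% of cells with most UMIs, its long-term Cldn3 was 95.9 CPM. Keeping every copy of a shared barcode moved 0 of 33 levels that far, and requiring 1000 genes per cell 0 of 71. The causes were not tested. No paired analysis was possible because cells could not be traced to tumors and no test was run. Cldn5 of the T22 labels (0 or 1 UMI in each experiment) and Cldn4 of Malign_0 in the short-term pools (0 UMIs) lie under the limit of 3 UMIs.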

Other observations

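Cldn3 and Cldn4 in the label B.cells of the short-term pools came from single cells. Among 42 cells of that label in the short-term T127 pools, 1 cell of 32518 UMIs held all 31 UMIs of Cldn3 and all 47 UMIs of Cldn4, together with 138 UMIs of Krt18 and 27 UMIs of Csn3, a milk protein gene, and 0 UMIs of the B cell genes Cd79a and Ms4a1. The other 41 cells held 0 UMIs of both claudins and 1478 CPM of Cd79a. In the short-term T22 pools 1 of 38 cells held all 10 UMIs of Cldn3 and 7 of Cldn4, with 51 UMIs of Krt18 and 0 of Cd79a. Before these cells were set aside, the label had 262 CPM of Cldn3 in the short-term T127 pools.

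The myeloid label CD14-PF4 held 164 CPM of Cldn3 in the long-term pools and 180 CPM in the short-term T22 pools. In the long-term pools 9 of 98 cells with at least 5 Cldn3 UMIs carried most of the claudins, with 299 CPM of Cldn7 and 157 CPM of Cldn4 against 1.24 and 4.97 CPM in the other 89 cells. These 9 cells held 2564 CPM of Krt18 against 57.2 CPM, and a median of 26925 UMIs against 7642. Ptprc, the leukocyte gene of CD45, was lower in them, at 226 against 534 CPM, as was Lyz2, at 4711 against 9356 CPM. The myeloid genes Csf1r, at 270 against 300 CPM, and Cd68, at 303 against 347 CPM, were closer. Adgre1 stood at 48.4 against 38.5 CPM. Whether these 9 cells are droplets with more than 1 cell was not tested. In the short-term T127 pools the label held 0 UMIs of Cldn3 and Cldn4.

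In the label CD14-IL1B, cells with a Cldn1 UMI numbered 145 of 446 in the long-term pools, 88 of 143 in the short-term T22 pools and 77 of 144 in the short-term T127 pools. In the long-term pools the 145 cells held more Cd207, the gene of langerin, than the other cells of the label, 747 against 183 CPM, more Itgae, 186 against 56.7 CPM, and less Cd14, 748 against 2009 CPM, Lyz2, 955 against 4938 CPM, and Ccr7, 27.1 against 145 CPM. Of the epithelial genes, Krt8 was low in both, at 9.33 and 13.9 CPM, while Epcam stood at 1240 CPM in the 145 cells and 862 CPM in the others. In the short-term pools Epcam stood at 246 CPM in cells with a Cldn1 UMI and 27.5 CPM in the others for T22, and at 866 and 295 CPM for T127. The median depth of the 145 long-term cells was 13311 UMIs against 12710, and no test was run on this split.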
